A study of Mus musculus with 6 samples.

Results

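The genes described here are 10 genes of neutrophil granules, found by their symbols among the 45777 genes of the deposited mouse table, and all 10 were listed. They were chosen by their higher counts in the streptozotocin (STZ) samples of these same data, so their STZ against vehicle values are a description and carry no test. By the granule that holds their proteins they were separated into 4 early, azurophil genes (Elane, Mpo, Ctsg and Prtn3), 3 late, secondary granule genes (Ngp, Camp and Ltf), the 2 calprotectin genes S100a8 and S100a9, which are switched on late but whose proteins lie mostly in the cytosol, and Chil3.

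RNA was sequenced from tdTomato+ astrocytes sorted from the brains of male Aldh1l1-cre/ERT2; tdTomato fl/fl mice on a C57BL/6 background, whose Cre, under the Aldh1l1 promoter, marks astrocytes after tamoxifen. The sample labels give the genotype as WT, and mice of both groups carried the alleles and, per the study's methods, received tamoxifen (75 mg/kg for 5 days). At 8 weeks of age, mice of the STZ group received a single injection of STZ (150 mg/kg), which destroys the insulin-producing beta cells of the pancreas, and mice of the vehicle group received citrate buffer. STZ mice with a blood glucose over 250 mg/dl at 5 days were kept, and brains were taken 21 days after the injection. Each group has 3 samples, and each sample pools cells of 3 mice, so the spread between samples is one between pools. The study's section on RNA sequencing describes removal of red blood cells, and names neither perfusion nor removal of the meninges. Its section on tissue for flow cytometry does name perfusion with PBS and excision of the meninges. Whether that preparation also served the sequenced cells is not stated.

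Neutrophils build their granules in waves while they mature in the bone marrow. Promyelocytes make the azurophil granule proteins, which are myeloperoxidase and the serine proteases; myelocytes and metamyelocytes switch these genes off and make the secondary granule proteins and calprotectin; and a circulating neutrophil carries the azurophil proteins with little of their mRNA. The factor PU.1 (Spi1) is among those that act on azurophil genes. C/EBP factors, such as C/EBP epsilon, are among those that act on secondary granule genes. Neither is described here as confined to either group of genes. Whether astrocytes made any of these mRNAs in these samples was not tested.

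The DNA before the start of each gene is shown because these groups of factors act there. The 250 bases before the RefSeq start of all 10 members were taken from the GRCm38.p6 assembly and searched on both strands for GAGGAA, the core of PU.1 sites, and TTGCNNAA, a form of the C/EBP site. GAGGAA lay in 4 of 4 azurophil windows and in 2 of the other 6 (Ltf and S100a8), and 23.4% of the 32536 windows of this length held it. TTGCNNAA lay in 0 azurophil windows and in 3 of the other 6 (Ngp, Ltf and S100a9), against 9.57% of all windows. With the looser TTNCNNAA, which contains every TTGCNNAA match, the counts were 0 azurophil windows and 5 of the other 6, against 36.8% of all windows. A match is a description of letters, neither a bound site nor a cause. The azurophil windows follow, 5′ to 3′ on the gene's strand, with GAGGAA in capitals. The match ends 80 bases before the start of Elane, 90 before that of Prtn3 and 211 before that of Ctsg, and Mpo holds 2 matches.
Elane, chr10:79886062-79886311, plus strand: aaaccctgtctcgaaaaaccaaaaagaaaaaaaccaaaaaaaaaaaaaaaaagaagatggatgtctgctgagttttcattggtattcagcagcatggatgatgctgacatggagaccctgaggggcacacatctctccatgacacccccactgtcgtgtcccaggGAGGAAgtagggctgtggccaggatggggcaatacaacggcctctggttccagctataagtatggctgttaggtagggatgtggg
Prtn3, chr10:79879417-79879666, plus strand: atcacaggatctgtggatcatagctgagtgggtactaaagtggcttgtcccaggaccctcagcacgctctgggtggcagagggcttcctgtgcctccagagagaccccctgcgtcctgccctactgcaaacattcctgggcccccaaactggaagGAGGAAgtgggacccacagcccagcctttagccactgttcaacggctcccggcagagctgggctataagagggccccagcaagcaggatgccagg
Mpo, chr11:87793534-87793783, plus strand: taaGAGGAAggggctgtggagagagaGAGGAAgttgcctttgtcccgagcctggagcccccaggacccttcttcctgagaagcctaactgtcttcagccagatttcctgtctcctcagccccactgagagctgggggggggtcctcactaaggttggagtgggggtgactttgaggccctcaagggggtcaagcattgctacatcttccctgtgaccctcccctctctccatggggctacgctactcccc
Ctsg, chr14:56102575-56102824, minus strand: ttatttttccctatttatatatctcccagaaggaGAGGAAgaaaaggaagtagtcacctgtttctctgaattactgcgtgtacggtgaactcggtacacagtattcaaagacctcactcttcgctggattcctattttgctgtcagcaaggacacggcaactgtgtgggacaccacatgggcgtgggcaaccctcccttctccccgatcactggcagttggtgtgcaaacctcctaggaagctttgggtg

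In the windows of the 3 late genes that hold TTGCNNAA, this motif is in capitals in either orientation, as is GAGGAA where Ltf holds it, read on the opposite strand. Ngp holds 2 matches, which end 131 and 4 bases before its start.
Ngp, chr9:110419558-110419807, plus strand: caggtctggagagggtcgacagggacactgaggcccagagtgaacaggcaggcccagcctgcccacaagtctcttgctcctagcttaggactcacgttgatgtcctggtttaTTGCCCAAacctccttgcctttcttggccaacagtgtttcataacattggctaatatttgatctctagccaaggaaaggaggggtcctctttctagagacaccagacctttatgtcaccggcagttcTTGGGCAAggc
Ltf, chr9:111019042-111019291, plus strand: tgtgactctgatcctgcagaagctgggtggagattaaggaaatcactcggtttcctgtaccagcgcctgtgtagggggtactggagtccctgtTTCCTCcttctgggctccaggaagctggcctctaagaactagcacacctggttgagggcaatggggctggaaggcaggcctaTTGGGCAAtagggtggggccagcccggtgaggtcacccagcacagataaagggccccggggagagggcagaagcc
S100a9, chr3:90695722-90695971, minus strand: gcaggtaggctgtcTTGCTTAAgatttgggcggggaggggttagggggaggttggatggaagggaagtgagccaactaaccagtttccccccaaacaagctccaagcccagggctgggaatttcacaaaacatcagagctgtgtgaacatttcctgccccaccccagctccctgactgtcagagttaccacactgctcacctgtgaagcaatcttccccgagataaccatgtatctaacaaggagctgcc

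Elane and Prtn3 are neighbours on chromosome 10 with 3137 bases between them, S100a8 and S100a9 lie 22.6 kb apart on chromosome 3, and Camp, Ngp and Ltf lie in this order on chromosome 9 with gaps of 570 and 596 kb. Mpo overlaps a long non-coding RNA gene, Gm34064, which had 0 to 7 counts per sample. Chil4, a close copy of Chil3, was listed at 0 counts in 4 samples, at 246 in STZ replicate 1 and at 63 in STZ replicate 3, so reads of Chil3 may be split with it.

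The libraries held 52529048 to 58749115 counts, and 22337 genes, all 10 members among them, had a count in every sample. Levels are given as CPM, counts per 1000000 counts of the library, after TMM scaling (trimmed mean of M values), whose factors lay between 0.977 and 1.03. The 9 astrocyte markers summed to 22066 to 25616 CPM in vehicle and 21910 to 23845 in STZ samples, with Aldoc the most abundant. Vehicle replicate 3 stood apart from the other vehicle samples in the granule genes and some gene lists below, but not in the median gene. It was the highest vehicle sample for all 10 members, at 4.24 to 7.21 times the mean of vehicle replicates 1 and 2, whereas the median gene stood at 1.004 times and 0.676% of 20847 genes with a mean of at least 10 counts stood at 4.24 times or more. Over all genes it was closest to vehicle replicate 2, with a chi-square per gene of 14.6, the smallest of the 15 pairs of libraries. Genes with many counts weigh most in this measure. Results are therefore given with it and without it.

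All 10 granule genes had a higher mean level in STZ than in vehicle samples, by 1.78-fold for Ltf to 7.30-fold for Chil3. The SD of at least 1 group was larger than the difference of the means for Prtn3, Camp and Ltf. All 3 STZ samples lay above vehicle replicates 1 and 2 for 10 of 10 members, as they did for 16.5% of the tested genes. All 3 STZ samples lay above all 3 vehicle samples for 2 of 10 members, Ctsg and Chil3, against 8.64% of the tested genes. A gene was called where the adjusted p was under 0.05 and the fold change was over 1.5. EdgeR's quasi-likelihood test called 0 members, beside 0.00895% of genes called higher in STZ, and DESeq2 called 1, Ctsg, against 0.654%. These counts come from the contrast that chose the genes, and nothing is read from them. In these bulk samples, more cells of a type and more RNA per cell cannot be told apart.

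**Figure D1:**
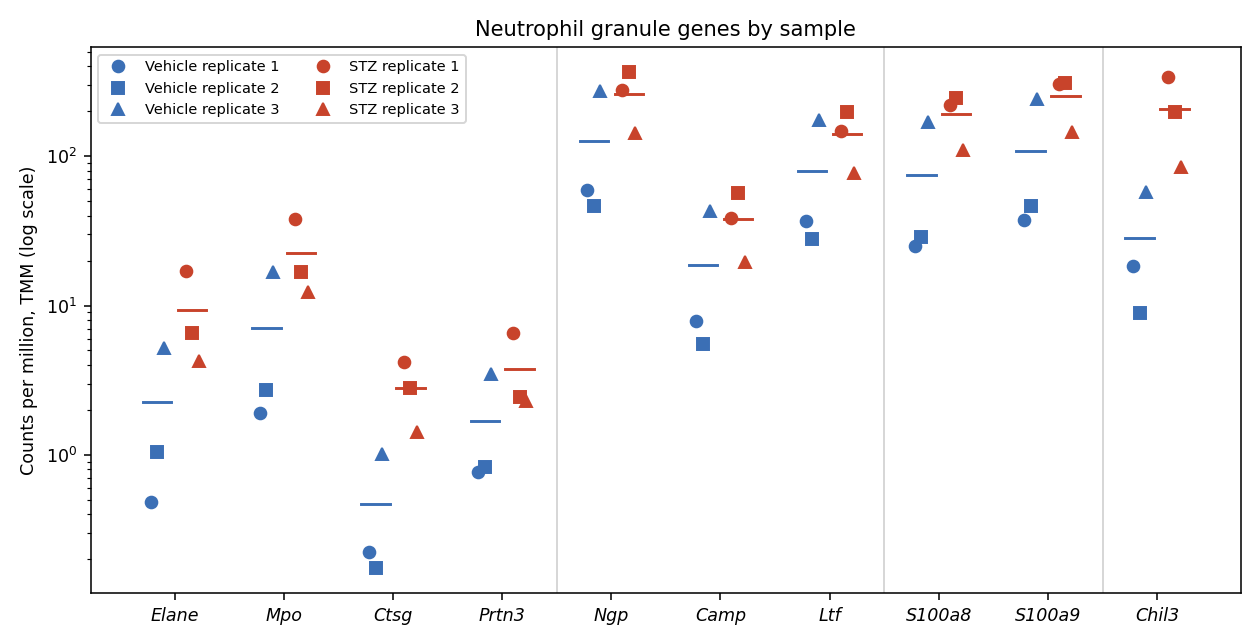
Level of each neutrophil granule gene in every sample, in CPM on a log axis, with vehicle samples in blue, STZ samples in red, a marker shape for each replicate number, and a line at each group mean. Vehicle replicate 3 (blue triangles) is the highest vehicle sample for all 10 genes, and the STZ samples lie above all vehicle samples for Ctsg and Chil3.

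Among the azurophil genes, Mpo encodes myeloperoxidase, which makes hypochlorous acid. Its counts were 102, 141 and 954 in vehicle replicates 1, 2 and 3, and 2287, 980 and 729 in STZ replicates 1, 2 and 3. STZ replicate 1 was the highest sample, and vehicle replicate 3 lay next to STZ replicate 2 and above STZ replicate 3, so the groups overlapped. The means were 7.09 ± 8.29 CPM (SD, n = 3) in vehicle and 22.3 ± 13.5 CPM (SD, n = 3) in STZ samples, a log2 fold change of 1.65 (SE 0.81). Without vehicle replicate 3 it was 3.26.

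Elane, which encodes neutrophil elastase, had 26, 54 and 299 counts in the vehicle samples and 1039, 383 and 251 in the STZ samples. STZ replicate 1 was again far above the others, and vehicle replicate 3 was above STZ replicate 3. The mean level went from 2.25 ± 2.59 to 9.33 ± 6.86 CPM (SD, n = 3 each), a log2 fold change of 2.05 (SE 0.87), and of 3.60 without vehicle replicate 3. Its neighbour Prtn3, proteinase 3, had 41, 43 and 198 counts in vehicle and 394, 142 and 134 in STZ samples. Here vehicle replicate 3 was above STZ replicates 2 and 3, the widest overlap among the azurophil genes. The means were 1.68 ± 1.54 and 3.74 ± 2.39 CPM (SD, n = 3 each), with a log2 fold change of 1.15 (SE 0.67), or 2.21 without vehicle replicate 3.

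Ctsg, cathepsin G, a serine protease made by neutrophils and also known from mast cells, had the lowest mean TPM of the 10 genes. Its counts were 12, 9 and 58 in vehicle and 255, 163 and 83 in STZ samples. The groups did not overlap, and the lowest STZ sample stood at 1.40 times vehicle replicate 3 in CPM. Means of 0.470 ± 0.471 and 2.81 ± 1.40 CPM (SD, n = 3 each) gave a log2 fold change of 2.56 (SE 0.70), or 3.79 without vehicle replicate 3. The 7 mast cell markers also had positive log2 fold changes. They summed to 7.57, 10.3 and 17.2 CPM in vehicle and to 90.6, 90.5 and 42.2 CPM in STZ samples, with Tpsb2 the most abundant and none at 0. Of them, 6 had all STZ samples above all vehicle samples, against 8.64% of the tested genes. EdgeR called 0 and DESeq2 called 4 higher in STZ, against 0.00895% and 0.654% of the tested genes. All 7 had an unadjusted edgeR p under 0.05, as had 2519 of the 22337 tested genes. The part of mast cells in the Ctsg values was not tested.

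The secondary granule genes were each more abundant in TPM than any azurophil gene. Ngp, neutrophilic granule protein, a cystatin-like inhibitor, had 3176, 2391 and 15682 counts in vehicle and 16936, 21260 and 8443 in STZ samples. Vehicle replicate 3 was close to STZ replicate 1 and above STZ replicate 3. The means were 126 ± 128 and 263 ± 112 CPM (SD, n = 3 each), a log2 fold change of 1.06 (SE 0.67), and of 2.30 without vehicle replicate 3.

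Camp encodes the cathelicidin antimicrobial peptide, and its counts were 420, 285 and 2469 in vehicle and 2325, 3286 and 1157 in STZ samples. Ltf encodes lactoferrin, which binds iron, and its counts were 1967, 1438 and 9960 in vehicle and 8992, 11555 and 4509 in STZ samples. For both genes vehicle replicate 3 was above STZ replicates 1 and 3, and STZ replicate 2 was the highest sample. Camp went from 18.8 ± 21.1 to 38.2 ± 18.4 CPM (SD, n = 3 each), a log2 fold change of 1.02 (SE 0.76), or 2.50 without vehicle replicate 3. Ltf went from 79.4 ± 81.9 to 141 ± 61.2 CPM (SD, n = 3 each), the smallest difference of the 10 genes at a log2 fold change of 0.83 (SE 0.69), or 2.12 without vehicle replicate 3.

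S100a8 and S100a9 encode the 2 chains of calprotectin, which binds zinc and manganese and is a ligand of Tlr4. S100a8 had 1333, 1487 and 9745 counts in vehicle and 13316, 14192 and 6493 in STZ samples, and S100a9 had 2003, 2399 and 13737 in vehicle and 18508, 18124 and 8564 in STZ samples. In both genes vehicle replicate 3 lay between STZ replicate 3 and the other STZ samples. The S100a8 means were 74.5 ± 82.8 and 191 ± 71.0 CPM (SD, n = 3 each), a log2 fold change of 1.36 (SE 0.73), or 2.83 without vehicle replicate 3. The S100a9 means were 108 ± 114 and 254 ± 93.9 CPM (SD, n = 3 each), a log2 fold change of 1.24 (SE 0.70), or 2.59 without vehicle replicate 3.

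Chil3, a chitinase-like protein (Ym1) made by neutrophils and by some monocytes and macrophages, had the largest difference. Its counts were 989, 459 and 3318 in vehicle and 20675, 11430 and 4975 in STZ samples. The groups did not overlap, although the lowest STZ sample stood at only 1.46 times vehicle replicate 3 in CPM. The means were 28.4 ± 26.0 and 207 ± 128 CPM (SD, n = 3 each), a log2 fold change of 2.87 (SE 0.75), or 3.91 without vehicle replicate 3. The 5 monocyte markers summed to 37.1 to 71.6 CPM in vehicle and 59.8 to 125 CPM in STZ samples, with none at 0 and Ccr2 the most abundant, and their part in the Chil3 values was not tested.

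Over the 10 members the median log2 fold change was 1.30, and 2.71 without vehicle replicate 3, beside 0.01 and 0.000545 over all tested genes. Leaving out any other sample kept the sign of all 10 fold changes. Without STZ replicate 1 the log2 fold change was 1.27 for Elane, 1.04 for Mpo, 2.15 for Ctsg, 0.48 for Prtn3 and 2.30 for Chil3, and between 0.79 and 1.25 for the secondary granule and calprotectin genes.

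**Figure D2:**
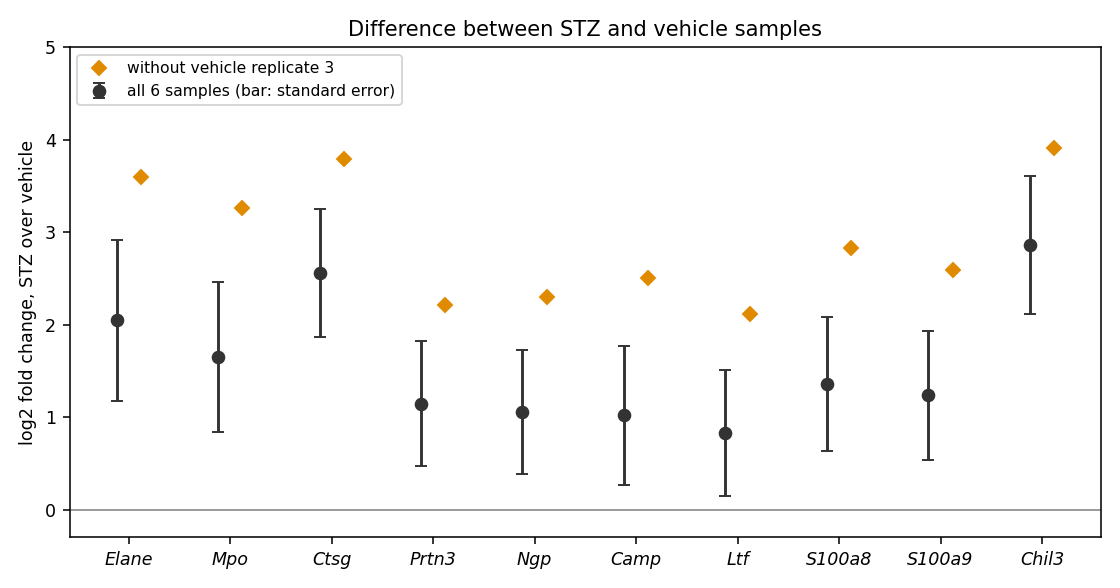
Difference between STZ and vehicle samples for each neutrophil granule gene, as edgeR log2 fold changes, with all 6 samples (black, bars are standard errors) and without vehicle replicate 3 (orange). All values are above 0, from 0.83 for Ltf to 2.87 for Chil3 with 6 samples, and all are larger without vehicle replicate 3.

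Levels of different genes were compared per transcript length, in TPM (transcripts per 1000000 transcripts, as the authors deposited them). Over the 6 samples the mean TPM was 751 for S100a9 and 737 for S100a8, followed by Ngp (364), Chil3 (168), Camp (103) and Ltf (87.2). The azurophil genes were lowest, at 13.7 for Elane, 12.6 for Mpo, 6.05 for Prtn3 and 3.57 for Ctsg. Neighbours in this order such as S100a9 and S100a8, or Elane and Mpo, differed by less than the spread between samples of a group. By TPM rank, S100a8 lay at percentiles of 97.4 to 99.8 in the 6 samples, and Ctsg at percentiles of 57.9 to 79.1.

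The azurophil and the late genes were then summed separately in each sample. The azurophil sum was 3.38, 4.76 and 26.3 CPM in vehicle and 65.5, 28.7 and 20.4 CPM in STZ samples. The secondary granule sum was 104, 79.3 and 491 CPM in vehicle and 466, 620 and 240 CPM in STZ samples. Both sums overlapped between the groups through vehicle replicate 3, and they had different highest samples, STZ replicate 1 for the azurophil and STZ replicate 2 for the secondary granule genes. The ratio of STZ to vehicle means was 3.32 for the azurophil, 1.97 for the secondary granule and 2.44 for the calprotectin genes.

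As a percentage of the secondary granule sum, the azurophil sum was 3.25%, 6.004% and 5.37% in vehicle and 14.1%, 4.62% and 8.48% in STZ samples. STZ replicate 1 was the highest, and STZ replicate 2 lay within the vehicle range, so a higher share of early genes in the STZ group was not separated from the spread between samples. Calprotectin stood at 0.600, 0.945 and 0.835 times the secondary granule sum in vehicle and at 1.13, 0.895 and 1.07 times in STZ samples, with overlap. Chil3 stood at 0.178, 0.112 and 0.118 times that sum in vehicle and at 0.732, 0.317 and 0.353 times in STZ samples, without overlap. Vehicle replicate 3, despite its higher levels, lay between the other vehicle samples in each of these 3 ratios.

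**Figure D3:**
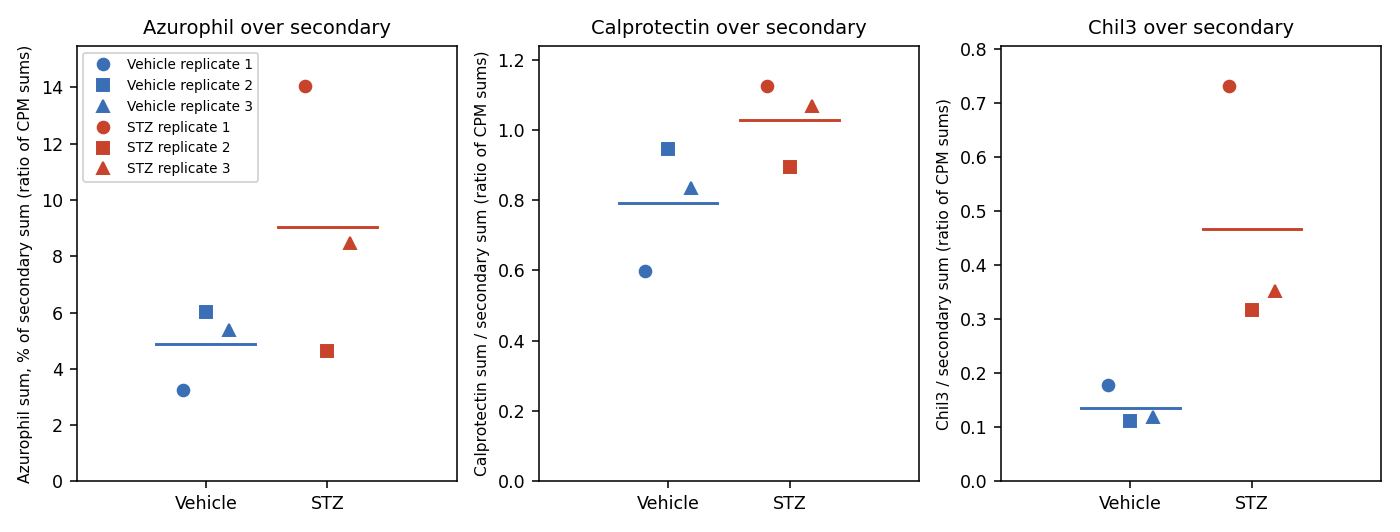
Ratios between groups of granule genes in each sample, with the azurophil sum as a percentage of the secondary granule sum, the calprotectin sum over it and Chil3 over it, all from CPM, with lines at group means. The Chil3 ratio is 0.112 to 0.178 in vehicle and 0.317 to 0.732 in STZ samples, while the other ratios shown overlap.

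Proportions varied less within the secondary granule genes and within calprotectin than within the azurophil genes. Between the sample with the highest and that with the lowest ratio, pairs within the secondary granule genes differed by 1.20 to 1.43-fold and S100a8 over S100a9 by 1.26-fold, although each of these genes ranged over 7.16-fold or more. Pairs within the azurophil genes differed by 1.78-fold (Elane and Mpo) to 5.48-fold, and pairs of an azurophil with a secondary granule gene by 3.48 to 8.74-fold. Chil3 against the secondary granule and calprotectin genes differed by 5.03 to 7.20-fold, and against the azurophil genes by 1.62 to 7.54-fold. In TPM, Prtn3 over Elane was 0.626 to 1.49 in vehicle and 0.349 to 0.503 in STZ samples, without overlap. Nor did Ngp over Ltf (3.72 to 3.93 in vehicle, 4.35 to 4.45 in STZ samples), Camp over Ltf or S100a9 over S100a8 overlap. In log2 CPM over the 6 samples, Pearson's r was 0.996 to 0.999 within the secondary granule genes and 0.856 to 0.920 between azurophil and secondary granule genes. These correlations are descriptions over samples that share the group difference and vehicle replicate 3.

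The genes outside the members with the most similar profile to the mean of each group were found among 20837 genes, over the 6 samples. For the azurophil genes they were Abcb1a (r = 0.998), Faah (0.996), Snx17 (0.995), Ptprb (0.994) and Smkr-ps (0.994). For the secondary granule genes they were Lilrb4a (0.997), Cyp2s1 (0.993), Tgfa (0.992), Smc2 (0.992) and Ctsh (0.989), and for calprotectin Gm21190 (0.998), Wfdc21 (0.998), Srgn (0.998), Gpr4 (0.997) and Gm39556 (0.995). Abcb1a, a drug efflux pump, and Ptprb, a receptor phosphatase, are known from brain endothelium. The sum of the 9 endothelial markers was 58.7, 86.0 and 191 CPM in vehicle and 346, 258 and 185 CPM in STZ samples, in which vehicle replicate 3 was again the highest vehicle sample. None of these markers was at 0 and Slco1a4 was the most abundant. All 9 had a positive log2 fold change, with a median of 1.26, and 1.76 without vehicle replicate 3. Of them, 6 had all STZ samples above all vehicle samples, against 8.64% of the tested genes. EdgeR called 0 and DESeq2 called 1 higher in STZ, against 0.00895% and 0.654% of the tested genes. An unadjusted edgeR p was under 0.05 for 8 of them, as for 2519 of the 22337 tested genes. The part of endothelial cells in the granule values was not tested.

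Other genes of neutrophils, in lists that leave out the members, were read from the same edgeR fit. In that fit, 2519 of the 22337 tested genes had an unadjusted p under 0.05. Of 16 surface genes, 15 were tested and 14 had a positive log2 fold change, with a median of 0.93 beside 0.01 over all tested genes, and 1.82 without vehicle replicate 3. EdgeR and DESeq2 called 0 of them, and 0 had an unadjusted p under 0.05. The 3 with the smallest p were the formyl peptide receptors Fpr2 (log2 fold change 1.79, SE 0.77) and Fpr1 (1.46, SE 0.64) and the interleukin-1 decoy receptor Il1r2 (1.17, SE 0.59). The genes with the most counts were the integrin gene Itgb2 (0.41, SE 0.42), which microglia also express, and Cd177 (1.12, SE 0.65), a surface protein of neutrophils. Ly6g, the defining surface marker of mouse neutrophils, named after its values were seen, had 39, 42 and 279 counts in vehicle and 225, 378 and 121 in STZ samples, again with vehicle replicate 3 above STZ replicates 1 and 3.

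Of 15 other late granule genes, 13 were tested and 12 had a positive log2 fold change, with a median of 0.81, and 2.09 without vehicle replicate 3. EdgeR and DESeq2 called 0, and 2 had an unadjusted p under 0.05. These were Hp, haptoglobin (377, 752 and 2340 counts in vehicle, 5067, 4397 and 1660 in STZ samples, log2 fold change 1.58, SE 0.64), and Chil1, a chitinase-like gene that astrocytes also express, which was lower in all STZ samples (-0.43, SE 0.10). Retnlg, a resistin-like gene of neutrophils, had the next smallest p (1.47, SE 0.75). Lyz2, lysozyme, which microglia also express, had the most counts (0.66, SE 0.43). The stefin genes Stfa1 (0, 0 and 4 counts in vehicle, 153, 90 and 12 in STZ samples) and Stfa2 (0, 0 and 0 counts, and 38, 28 and 11) had a vehicle sample at 0 and were not tested. They are named after their values were seen.

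As a list, the other early granule genes did not share this pattern of signs. How much of their counts came from neutrophils was not tested. Of 8, 7 were tested and 4 had a positive log2 fold change, with a median of 0.02, and 0.09 without vehicle replicate 3, and Bpi was at 0 counts in all 6 samples. EdgeR called 0 and DESeq2 called 1, and 2 had an unadjusted edgeR p under 0.05. The gene called by DESeq2 was Serpinb1a, an inhibitor of elastase and cathepsin G, with 1433, 1168 and 1557 counts in vehicle and 2692, 2516 and 2010 in STZ samples (log2 fold change 0.67, SE 0.13, edgeR adjusted p = 0.189, DESeq2 adjusted p = 0.00134). The other gene with an unadjusted p under 0.05 was Ms4a3 (log2 fold change 1.97, SE 0.61). It had 10, 7 and 22 counts in vehicle and 94, 52 and 21 in STZ samples. The negative values were those of Prss57 (-0.15), Cst7 (-0.07) and Cd63 (-0.10). These 4 genes are named after their values were seen. Cd63, a membrane protein of lysosomes and granules in many cell types, held most of the list's counts.

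Of 9 transcription factors of granulocyte formation, 8 were tested and all 8 had a positive log2 fold change, with a median of 0.68, and 1.04 without vehicle replicate 3. EdgeR called 0 and DESeq2 called 1, and 2 had an unadjusted edgeR p under 0.05. The gene called by DESeq2 was Cebpd, which astrocytes also express, with 1048, 989 and 1535 counts in vehicle and 2375, 2477 and 2263 in STZ samples (log2 fold change 0.88, SE 0.14, edgeR adjusted p = 0.163, DESeq2 adjusted p = 1.2e-05). In this gene vehicle replicate 3, at 26.8 CPM, lay below all STZ samples, of which the lowest was at 38.5 CPM. Cebpe and Gfi1 are named after their values were seen. Cebpe, a factor of the secondary granule genes, had 20, 4 and 42 counts in vehicle and 60, 55 and 20 in STZ samples. Gfi1, a repressor needed for granulocyte formation, had 0, 0 and 16 counts in vehicle and 21, 18 and 17 in STZ samples.

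Of 10 receptors and inhibitors of granule proteins, all tested, 6 had a positive log2 fold change, with a median of 0.07, and 0.17 without vehicle replicate 3. EdgeR called 0 and DESeq2 called 1, and 3 had an unadjusted edgeR p under 0.05. The gene called by DESeq2 was Serpina3n, a secreted serine protease inhibitor that reactive astrocytes express, with 1168, 1052 and 1066 counts in vehicle and 2547, 2062 and 1297 in STZ samples (log2 fold change 0.71, SE 0.22, edgeR adjusted p = 0.326, DESeq2 adjusted p = 0.0468). Tlr4, a receptor for calprotectin, named after its values were seen, had 312, 376 and 510 counts in vehicle and 433, 438 and 329 in STZ samples.

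Markers of other blood and brain cells were summed in each sample beside the granule genes. Erythroid markers summed to 4.57 to 15.3 CPM in vehicle and 9.86 to 17.8 CPM in STZ samples (Hba-a1 the most abundant), and platelet and megakaryocyte markers to 9.98 to 14.3 and 8.78 to 18.2 CPM (Gp1bb). B cell markers summed to 24.8 to 37.4 and 20.2 to 25.2 CPM (Ighm), and T and NK cell markers to 9.25 to 12.9 and 10.04 to 12.99 CPM (Trac). Border macrophage markers summed to 32.1 to 61.7 and 28.0 to 68.4 CPM (F13a1, also in the monocyte list), and eosinophil and basophil markers to 10.3 to 15.2 and 14.0 to 38.1 CPM (Ear2). The B cell sum rests mostly on Ighm. F13a1 stood at 24.2, 10.9 and 21.6 CPM in vehicle and 48.3, 30.8 and 15.0 CPM in STZ samples. The median log2 fold change was -0.64 in the border macrophage list, with 1 of 6 positive (F13a1). It was -1.56 in the B cell list, with 0 of 7 positive. EdgeR called 0 genes of either list, with an unadjusted p under 0.05 for 3 of each, and DESeq2 called 1 of each lower in STZ. Over all 22337 tested genes, edgeR called 3 and DESeq2 called 88 lower in STZ. Choroid plexus markers summed to 5861 to 17308 and 8928 to 15364 CPM (Ttr), and cell cycle genes to 45.2 to 84.2 and 86.0 to 93.8 CPM (Top2a). The highest sample stood at 3.90 times the lowest for the erythroid, 2.07 times for the platelet, 1.86 times for the B cell, 3.38 times for the monocyte, 5.90 times for the endothelial and 11.97 times for the mast cell list. It was 19.4 times for the azurophil, 7.82 times for the secondary granule and 8.92 times for the calprotectin sum. The part of these cells in the granule values was not tested.

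**Figure D4:**
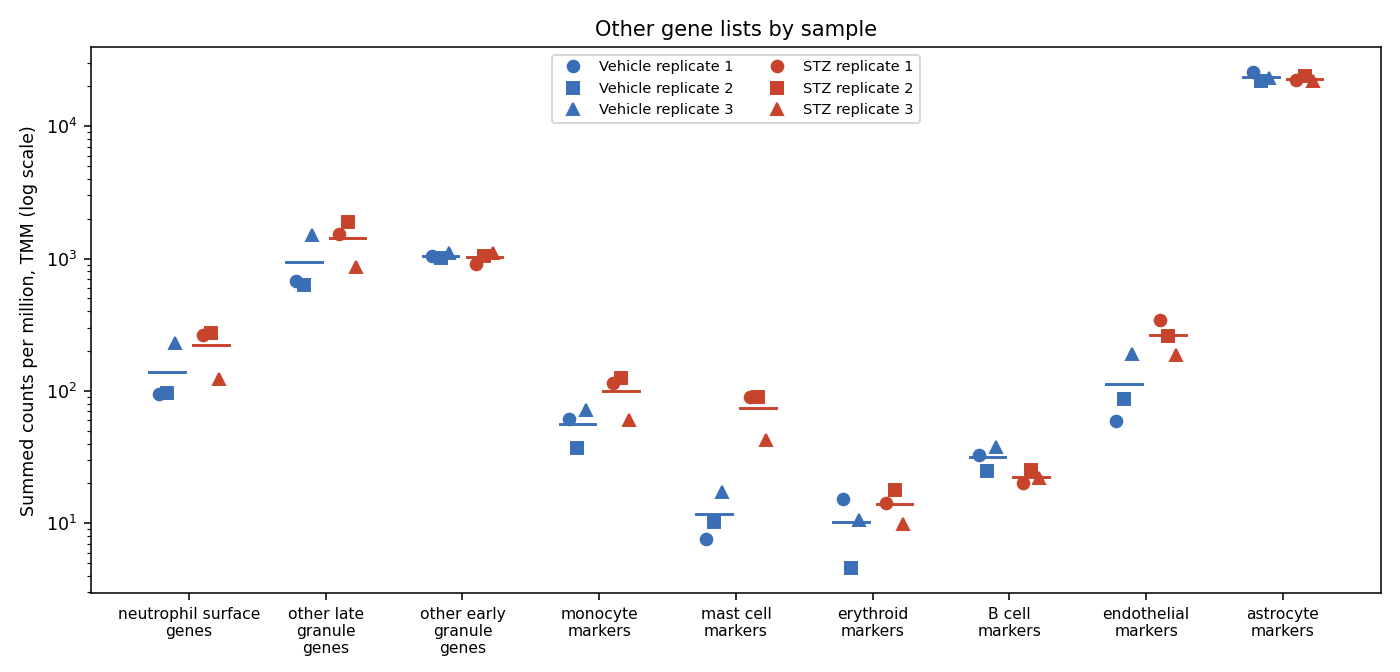
Summed CPM, on a log axis, of other neutrophil lists and of markers of other cells in every sample, with lines at group means. Vehicle replicate 3 (blue triangles) lies within the range of the STZ samples for every list shown except the mast cell and B cell markers, as it does for 8 of the 10 members. The astrocyte markers lie between 21910 and 25616 CPM in all 6 samples.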

How the data were processed

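RNA of 6 samples of sorted astrocytes, 3 vehicle and 3 STZ, was analysed, with groups and replicate numbers from the sample titles. The authors trimmed reads (Trimmomatic 0.38), aligned them to mm10 with HISAT2 2.1.0 and quantified genes with StringTie 2.1.3b, per the submitters' processing notes. The deposited table holds raw, unnormalized counts of reads for each gene. FPKM values deposited by the authors were not used, and the deposited TPM values served for levels between genes. All measurement columns belonged to mapped samples. The study's methods name both a TruSeq and a SMART-Seq kit, and whether counting used strand is not given in the sources used here. The authors removed outlier genes by a step that was not repeated.

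EdgeR 4.0.16 (R 4.3.3) was fitted to the 22337 genes counted in all samples, with TMM scaling and a two-sided quasi-likelihood test. Calls needed a Benjamini-Hochberg p under 0.05 and a change over 1.5-fold. The script was tested on simulated data. Log2 CPM for correlations used a prior count of 2. Total counts of 52529048 to 58749115 make counting error small beside the spread between samples, except for genes with few counts. Each pool holds its own mice, and p-values measure the spread between pools.

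The members and lists were chosen with earlier results of these data known. Named are the 10 members; of each other neutrophil list, every gene that edgeR or DESeq2 called, or else the 3 with the smallest p and the 2 with the most counts; of each cell type list, its most abundant gene (1 such list is not reported here); and the 5 genes most correlated with each group of members. Other names were chosen after their values were seen, and are said to be. Alternatives were DESeq2 1.42.0, its size factors, other filters, robust fitting, the replicate number as a block, limma 3.58.1 on log2(TPM + 1) and log2(TPM + 0.1), CPM without TMM, summed TPM, group medians and leaving out each sample. Upstream windows came from RefSeq on GRCm38.p6, and all 10 members matched by symbol. Tables were made with Python 3.11.15, numpy 2.4.6 and pandas 2.3.3.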

Additional observations from a re-analysis of the deposited data

How the results depend on the processing

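The 10 granule genes kept a positive log2 fold change in all 140 values under 14 alternatives, of which 9 moved by more than the spread between samples. The lowest was 0.42, for Ltf. Over all genes, edgeR called 5; DESeq2 called 234, robust fitting 10, and limma on log2(TPM + 1) and on log2(TPM + 0.1) 0 each (2544 and 2258 had an unadjusted p under 0.05). Leaving out a sample gave 0 to 1 called genes. Same-numbered samples did not deviate together (correlations of -0.10, -0.16 and -0.18). With 3 samples in each group, these correlations cannot show whether the numbers share a batch, and the sources used here do not state it. With the replicate block the edgeR count was 0, and 1793 genes had an unadjusted p under 0.05. In DESeq2, calls covered 1 of the other early granule genes, 1 of the transcription factors and 1 of the receptors and inhibitors, where edgeR called 0. The summed azurophil CPM had a log2 ratio of STZ to vehicle means of 1.73, and of 1.09 to 3.23 with a sample left out. The secondary granule sum had 0.98, with 0.57 to 2.27 when a sample was left out and 2.17 from group medians. The calprotectin sum had 1.29, with 0.88 to 2.70 and 2.81. Among samples left out, vehicle replicate 3 gave the highest value of each sum. Without it, a choice made after seeing the data, 10 members rather than 2 had all STZ samples above the vehicle samples. The share of all tested genes went from 8.64% to 16.5%. As vehicle replicate 3 was the highest vehicle sample for all 10 members, leaving it out could not lower their count. The cause of these changes was not tested.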
